A study of Homo sapiens with 4 samples.

Results

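ZNF350, also called ZBRK1, is a KRAB zinc finger protein that represses transcription, and 8 genes named in the literature as its corepressor partners or as genes it represses were followed on expression arrays. The partners were BRCA1, BARD1, RBBP8, TRIM28, SETDB1 and CBX5, and the targets were HMGA2 and ANGPT1. Their probes were found through the RefSeq accession that the array files give for each probe, which yielded 13 probes for the 8 genes. Of these 13 probes, 12 were well above background on all 4 arrays, so that 7 of the 8 genes could be compared, among 15707 genes or unnamed transcripts that passed the same filter out of 40909 in all. ANGPT1 did not pass.

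The cells came from HCT116, a human colorectal carcinoma line. MG cells were a subpopulation obtained from those that crossed the membrane of a transwell chamber in repeated rounds, and non-MG cells were those that stayed behind. Each subpopulation was kept for 48 h with vehicle or with 5-azacytidine at 5 µM, which blocks DNA methyltransferases, and its RNA was hybridized to a one-colour Agilent array. The 4 conditions were thus non-MG cells with vehicle, non-MG cells with 5-azacytidine, MG cells with vehicle and MG cells with 5-azacytidine, with 1 array each, so that no test between conditions was possible. MG and non-MG cells are populations enriched from 1 line, and in such bulk samples fewer cells with a transcript and less of it per cell cannot be told apart.

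KRAB zinc finger proteins bind DNA through their fingers and silence the bound gene by recruiting corepressors. The KRAB domain binds TRIM28 (KAP1), a scaffold that brings in SETDB1, which methylates lysine 9 of histone H3, and CBX5 (HP1 alpha), which reads that mark and compacts chromatin. ZNF350 also works with BRCA1 and with RBBP8 (CtIP), and BARD1 is the partner that BRCA1 needs for its stability and its ubiquitin ligase activity. BRCA1, BARD1 and RBBP8 are better known for repairing DNA breaks by homologous recombination, and are genes of dividing cells. ANGPT1 encodes a secreted ligand of the TIE2 receptor on endothelial cells, and HMGA2 encodes a chromatin protein of embryonic and many cancer cells that the microRNA let-7 holds down.

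A level is given here either as the background-corrected intensity of a probe or as its log2 level, the log2 of that intensity minus the 75th percentile of its array. The MG/non-MG ratio is the difference of the log2 levels of the 2 cell types under 1 treatment, and the drug ratio is 5-azacytidine minus vehicle within 1 cell type. The count of genes beyond a 1.5-fold difference, 0.585 on the log2 scale, is given for each. Spot error is the SD expected of a ratio. It is taken from the median scatter between spots, at like intensity, of probes that are printed at least 8 times on an array. It holds neither the variation between cultures nor that between arrays. The 75th percentile of intensity was 75.2 to 98.7, 21382 to 21881 of 50594 probes were well above background on an array, and no spot was saturated. All 6 epithelial marker genes were well above background on every array, while COL1A2, COL3A1, LUM, DCN and PDGFRB of fibroblasts, PTPRC, CD3E and HBB of blood cells and PECAM1 and CDH5 of endothelium were so on none. In each of those 3 lists 1 gene was detected, which was COL1A1, CD14 or VWF, and the summed intensity per array was 74.4 to 106 for the fibroblast list, 30.0 to 41.8 for the blood list and 27.2 to 38.7 for the endothelial list, against 1.11e+05 to 1.32e+05 for the epithelial list. The 4 arrays lay on 1 slide, with non-MG cells in row 1, MG cells in row 2, vehicle in column 3 and 5-azacytidine in column 4, and slide position and condition cannot be told apart.

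ZNF350 itself set the frame for its partners and targets. Its single probe gave an intensity of 31.5 in non-MG cells with vehicle, 34.3 in non-MG cells with 5-azacytidine, 2.60 in MG cells with vehicle and 15.1 in MG cells with 5-azacytidine. The MG array with vehicle was the lowest and was the one on which the probe was not well above background, so that the fold is only bounded there. ZNF350 was at least 3.11-fold lower in MG than in non-MG cells with vehicle, measured from the lowest signal that was well above background on the MG array. With 5-azacytidine its MG/non-MG ratio was −1.55 (spot error 0.35). Against that same limit ZNF350 was at least 1.34-fold higher with the drug in MG cells, and its drug ratio in non-MG cells was 0.34 (spot error 0.24). Under normexp, another background correction, the MG/non-MG ratios were −0.81 with vehicle and −0.61 with 5-azacytidine and the drug ratio in MG cells was 0.33. The directions were kept, and the sizes were smaller, below the bounds where these were given. The offset of 50 used there exceeds every intensity of this probe and draws its ratios towards 0. These sizes therefore cannot decide whether the bounds hold.

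Because 5-azacytidine blocks DNA methyltransferases, which methylate CpG, the ZNF350 promoter is shown with its CpG dinucleotides in capitals. It is the RefSeq sequence of GRCh38.p14 at chr19:51986791-51987090, minus strand, from 250 bases before to 50 bases after the start of transcription.
ZNF350: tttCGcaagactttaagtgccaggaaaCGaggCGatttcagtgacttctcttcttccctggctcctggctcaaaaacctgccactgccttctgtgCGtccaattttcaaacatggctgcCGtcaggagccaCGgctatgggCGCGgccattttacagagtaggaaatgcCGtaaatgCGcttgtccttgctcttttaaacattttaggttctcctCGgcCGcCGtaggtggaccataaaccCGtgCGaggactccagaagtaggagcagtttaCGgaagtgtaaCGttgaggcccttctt
It holds 17 CpG, against a median of 14 over 35116 promoters of the same length. Methylation was not measured on these arrays. The paper measured it with other assays. It reports some CpG sites of the ZNF350 promoter as more methylated in MG than in non-MG cells and, to a lesser extent, others as less methylated.

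**Figure D1:**
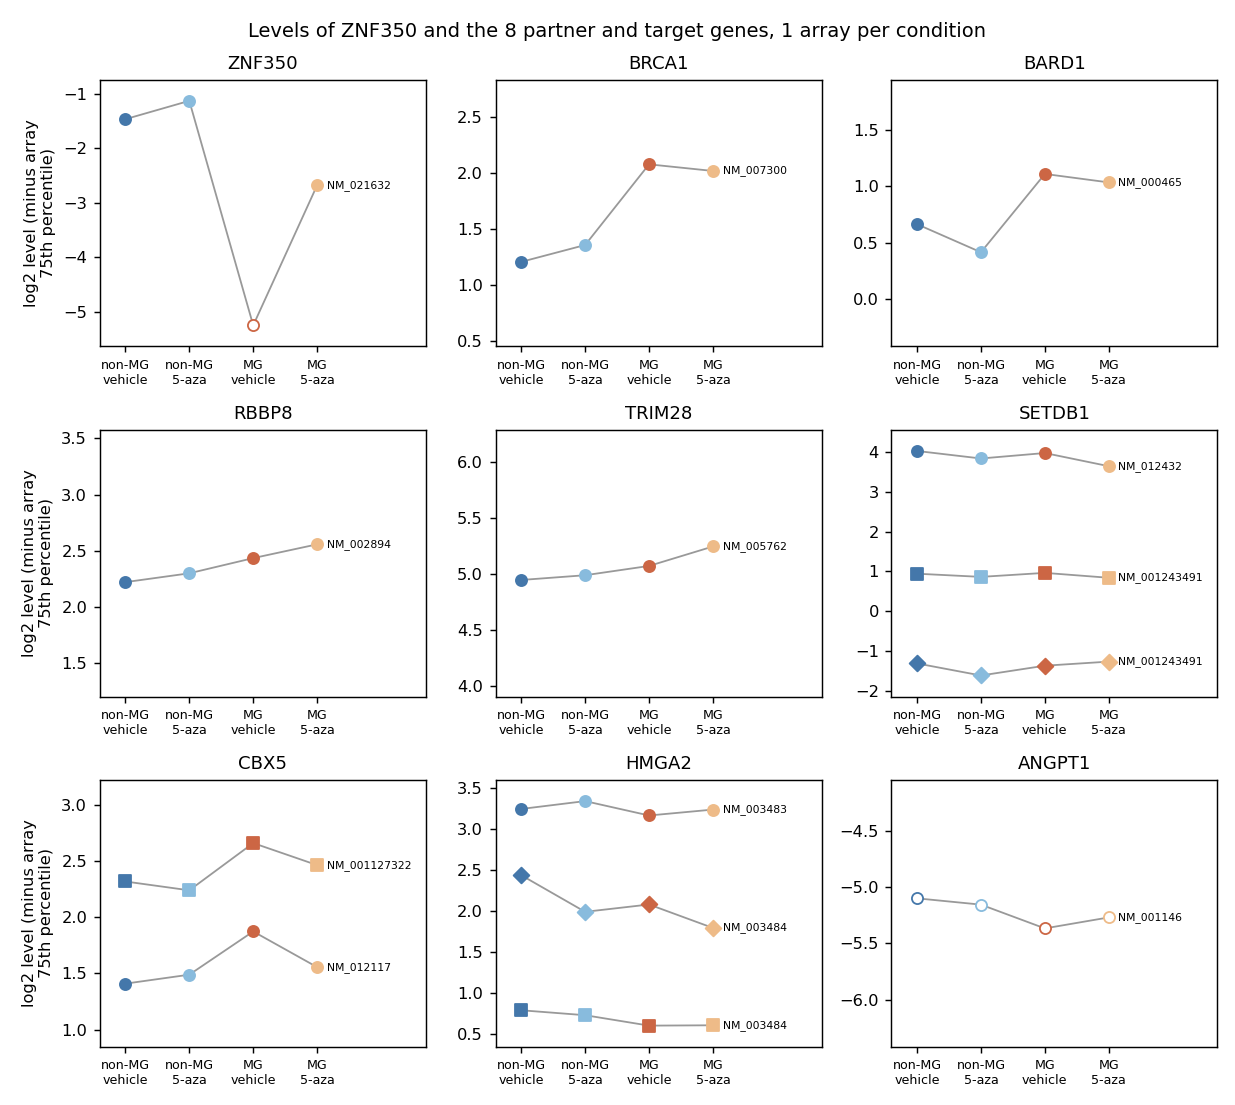
Log2 level (log2 intensity minus the 75th percentile of the array) of every probe of ZNF350 and the 8 genes on the 4 arrays, with 1 array per condition. Filled symbols are well above background and open symbols are not, lines join the values of 1 probe, and each panel has its own vertical range. ZNF350 is lowest in MG cells with vehicle, and ANGPT1 is open throughout. BRCA1, BARD1, RBBP8, TRIM28 and both probes of CBX5 are higher on both MG arrays than on both non-MG arrays.

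Among the partners, BRCA1 had the largest difference between the cell types. Its probe was printed 10 times and had an intensity of 201 in non-MG cells with vehicle, 193 in non-MG cells with 5-azacytidine, 417 in MG cells with vehicle and 391 in MG cells with 5-azacytidine. Both MG arrays lay above both non-MG arrays, and this held spot by spot. The log2 levels of the 10 spots ran from 1.06 to 1.30 (SD 0.08) and from 1.22 to 1.48 (SD 0.07) on the non-MG arrays with vehicle and with 5-azacytidine, and from 1.73 to 2.28 (SD 0.15) and from 1.82 to 2.14 (SD 0.10) on the MG arrays. These 10 spots share 1 labelled RNA, so they measure the precision of the array and are not replicates of the cells. The MG/non-MG ratio was 0.87 with vehicle (spot error 0.03) and 0.66 with 5-azacytidine (spot error 0.03), higher than in 98.5% and 96.2% of all genes compared. These spot errors rest on the median SD of probes of like intensity, which is 0.06 for the MG arrays. The spots of BRCA1 scattered more than that, most with vehicle in MG cells, so its own spots would give a larger error.

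**Figure D2:**
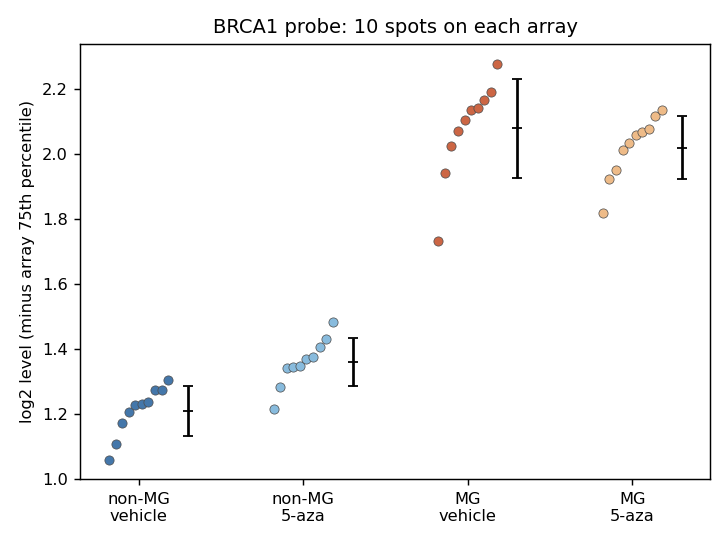
Log2 level of each of the 10 spots of the BRCA1 probe on each of the 4 arrays, sorted within an array, with the mean and SD of the spots beside them. The lowest MG spot, at 1.73, lies above the highest non-MG spot, at 1.48.

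BARD1 was measured by 1 spot per array. Its intensity was 138 in non-MG cells with vehicle, 100 in non-MG cells with 5-azacytidine, 213 in MG cells with vehicle and 198 in MG cells with 5-azacytidine, so that it too was higher on both MG arrays. The MG/non-MG ratio was 0.45 with vehicle (spot error 0.10) and 0.62 with 5-azacytidine (spot error 0.11), which is within 1.5-fold in the former and past it in the latter. RBBP8, the nuclease cofactor that starts resection of broken DNA ends, had intensities of 405, 370, 533 and 567 in the same order. Its ratio was 0.21 with vehicle and 0.26 with 5-azacytidine (spot error 0.09 in both), above 0 and within 1.5-fold.

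Past 1.5-fold and higher in MG cells were thus 1 of the 7 genes with vehicle, BRCA1, and 2 of the 7 with 5-azacytidine, BRCA1 and BARD1. None of the 7 was lower past 1.5-fold in either comparison. Among all genes compared, 5.68% were higher and 8.24% lower with vehicle, and 5.74% were higher and 7.33% lower with 5-azacytidine. The share of higher genes among all genes past 1.5-fold was 40.8% with vehicle and 43.9% with 5-azacytidine, and it ran from 38.7% to 78.0% and from 26.8% to 88.3% under other background corrections and scalings, so that the direction of small ratios depends on the scaling. Relative to the median of all genes, BRCA1 was at 0.88 with vehicle and 0.64 with 5-azacytidine.

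The promoters of BRCA1 and BARD1 are printed because these were the partners past 1.5-fold. They are RefSeq sequences of GRCh38.p14, with BRCA1 at chr17:43125315-43125614 and BARD1 at chr2:214809634-214809933, both on the minus strand. BRCA1 has another promoter listed, at chr17:43170278-43170577, which holds none of the motifs searched and is not printed. Capitals mark the E2F core TTCCCGC on either strand, and in BRCA1 also a match to GGGNNNCAG, the first part of the ZBRK1 recognition motif.
BRCA1: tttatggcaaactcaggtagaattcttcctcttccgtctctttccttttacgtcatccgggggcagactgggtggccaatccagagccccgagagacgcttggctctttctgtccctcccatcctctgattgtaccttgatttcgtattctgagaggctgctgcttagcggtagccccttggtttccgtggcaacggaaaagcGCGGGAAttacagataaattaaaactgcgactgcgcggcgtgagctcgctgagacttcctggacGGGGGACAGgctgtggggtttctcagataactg
BARD1: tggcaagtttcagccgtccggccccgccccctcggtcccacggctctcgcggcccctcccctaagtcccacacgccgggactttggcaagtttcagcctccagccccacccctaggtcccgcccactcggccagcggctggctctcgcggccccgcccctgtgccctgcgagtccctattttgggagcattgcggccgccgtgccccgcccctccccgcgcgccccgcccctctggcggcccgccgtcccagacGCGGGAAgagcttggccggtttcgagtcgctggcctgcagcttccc
The E2F core, a sequence common in promoters of genes that are used in S phase, starts 47 bases before the start of BRCA1 and at base 5 after the start of BARD1, on the reverse strand in both. It was not found in the listed promoters of RBBP8, SETDB1 and CBX5. The core is present in 6.55% of the 35116 promoters, and it was searched after the values were seen. The ZBRK1 motif was searched as GGGNNNCAG and CAGNNNTTT, which share the letters CAG and overlap to make the whole motif. The former is in 33.4% and the latter in 17.8% of all promoters, and both joined are in 0.399%. BRCA1 holds the former at base 18 after its start, SETDB1 and CBX5 hold the latter in 1 of their promoters each, and the joined motif was not found in the promoters of BRCA1, BARD1, RBBP8, SETDB1 and CBX5. The targets HMGA2 and ANGPT1, and TRIM28, were not searched. A match describes the letters in these windows and not binding.

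None of the 3 partners of the KAP1 arm was past 1.5-fold between the cell types. TRIM28 had intensities of 2683 in non-MG cells with vehicle, 2386 in non-MG cells with 5-azacytidine, 3318 in MG cells with vehicle and 3655 in MG cells with 5-azacytidine. Its MG/non-MG ratio was 0.13 with vehicle and 0.26 with 5-azacytidine (spot error 0.07 in both), within 1.5-fold. CBX5 has 2 probes, for different RefSeq transcripts, and both were higher on each MG array than on the matched non-MG array. The probe for NM_012117 read 231, 211, 362 and 284 in the same order of arrays, and that for NM_001127322 read 434, 355, 624 and 532. The mean MG/non-MG ratio of CBX5 was 0.40 with vehicle and 0.15 with 5-azacytidine (spot error 0.06 in both). CBX1 and CBX3, the other HP1 proteins, had such ratios of 0.27 and 0.39 with vehicle, and these 2 were singled out as relatives of CBX5 after their values were seen.

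SETDB1 has 3 probes, whose ratios scattered about 0. The probe for NM_012432 had intensities of 1421 in non-MG cells with vehicle, 1077 in non-MG cells with 5-azacytidine, 1555 in MG cells with vehicle and 1208 in MG cells with 5-azacytidine. The 2 probes for NM_001243491 read 167, 137, 193 and 173, and 35.0, 24.5, 38.2 and 40.1. With vehicle the 3 MG/non-MG ratios were −0.05, 0.02 and −0.06 and their mean was −0.03 (spot error 0.07). With 5-azacytidine they were −0.19, −0.02 and 0.35, a mean of 0.04 (spot error 0.09) over probes that differ in sign, and the spot error of the probe at 0.35 was 0.24.

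**Figure D3:**
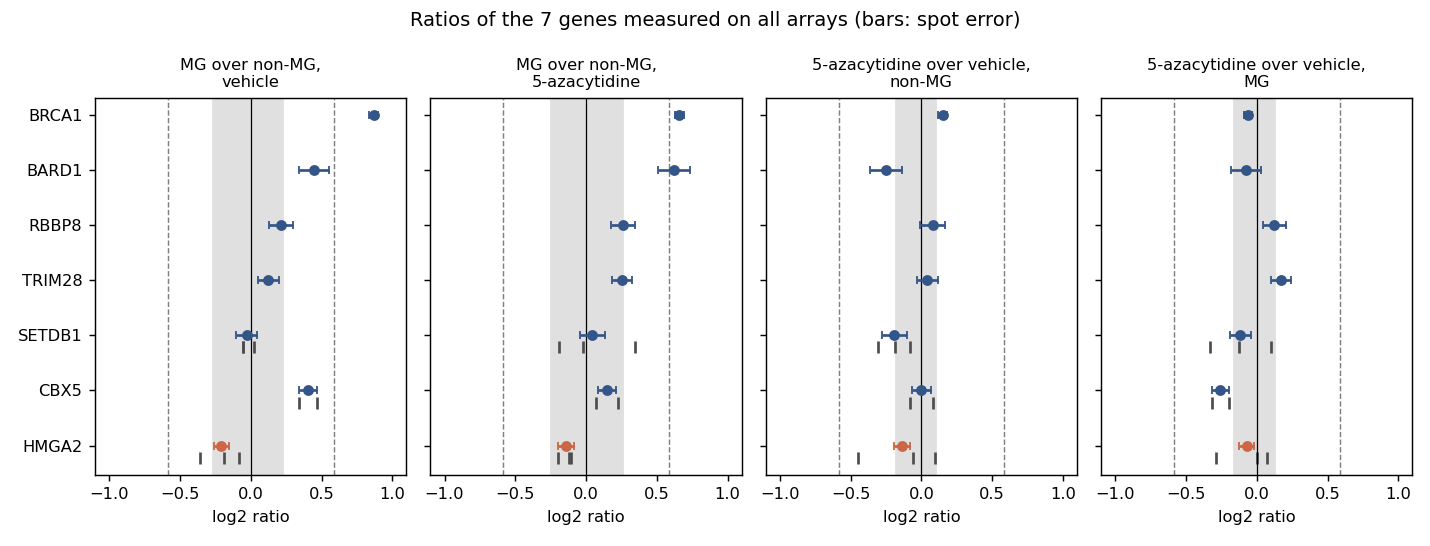
Log2 ratio of the 7 genes measured on all arrays in each of the 4 comparisons, as the mean over the probes of a gene, with horizontal bars for the spot error and ticks below for single probes where a gene has several. Partners are blue and the target HMGA2 is red, the grey band spans the middle 50% of all genes, and dashed lines mark 1.5-fold. BRCA1 in both comparisons of the cell types and BARD1 in that with 5-azacytidine lie beyond the dashed line.

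The targets address whether genes under ZNF350 stand opposite to it, and 1 of the 2 could be read. HMGA2 has 3 probes. The probe for NM_003483 had intensities of 827 in non-MG cells with vehicle, 764 in non-MG cells with 5-azacytidine, 888 in MG cells with vehicle and 912 in MG cells with 5-azacytidine, and the 2 probes for NM_003484 had 150, 124, 150 and 147, and 472, 299, 418 and 334. After scaling, all 3 were slightly lower in MG than in non-MG cells with vehicle, at −0.08, −0.19 and −0.36, and their mean ratio was −0.21 (spot error 0.05). With 5-azacytidine the mean ratio was −0.14 (spot error 0.06). HMGA2 therefore lay on the same side as ZNF350 in both comparisons of the cell types, within 1.5-fold, and at −0.20 and −0.16 relative to the median of all genes. Centring each array on its median moved the median of all genes to 0.18 with vehicle and 0.27 with 5-azacytidine and the ratio of HMGA2 to −0.01 and 0.12, so that its sign with 5-azacytidine turned under that scaling. ANGPT1 had intensities of 2.54 and 2.11 in non-MG cells and of 2.39 and 2.5 in MG cells, which is background on every array, and has no ratio.

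TRIM28, given above, is also named as a target of ZNF350. Another 6 genes named as such were read in the same way, with 4 of the 6 well above background on all arrays. GADD45A, a gene of the DNA damage response, had an MG/non-MG ratio of −0.23 with vehicle and −0.24 with 5-azacytidine. HMGA1, the relative of HMGA2, had −0.22 and −0.03. MMP9, a secreted protease printed 10 times, had −0.51 and −0.26 (spot error 0.04 in both). CDKN1A, the p53 target p21, had 0.26 and 0.67 (spot error 0.10 in both). Of these 4 it was the only gene past 1.5-fold, with 5-azacytidine, though not under normexp or the 75th percentile of detected probes. With vehicle 3 of these 4 were thus on the side of ZNF350 and 1 on the other. The median of all genes was −0.01 there, so that a ratio below 0 does not by itself set a gene apart. The ratio with vehicle was higher than in 28.1% of all genes for GADD45A, 29.3% for HMGA1, 10.7% for MMP9 and 77.9% for CDKN1A. Not in this count are FGF2, given next, and TRIM28, at 0.13, which were on the other side, and HMGA2, at −0.21, on the side of ZNF350. FGF2, a growth factor, was well above background on 3 arrays for 1 of its 2 probes. Its intensities were 13.5 in non-MG and 25.4 in MG cells with vehicle, a ratio of 0.73 (spot error 0.38), which is past 1.5-fold. With 5-azacytidine that probe was at least 1.72-fold higher in MG cells, and its other probe was above background on none. SNAI2, a repressor of epithelial genes, was not above background on any array. The paper reports SNAI2 as higher in MG cells and lowered by overexpressed ZNF350, and proposes it as a possible target. The probe read here was too dim to bear on that.

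The response to 5-azacytidine was smaller for all 7 genes than 1.5-fold in both cell types. In non-MG cells the drug ratios ran from −0.25 for BARD1 (spot error 0.11) to 0.15 for BRCA1 (spot error 0.03), and in MG cells from −0.26 for CBX5 (spot error 0.06) to 0.17 for TRIM28 (spot error 0.07). Thus 0 of the 7 passed in either, where 1.9% of all genes were higher and 1.68% lower in non-MG cells, and 3.02% higher and 2.1% lower in MG cells. In MG cells, where ZNF350 was higher with the drug, HMGA2 was at −0.07 (spot error 0.05), with its 3 probes at 0.07, 0.00 and −0.29. In non-MG cells HMGA2 was at −0.14 (spot error 0.06), with its probes at 0.10, −0.06 and −0.45. CDKN1A had a drug ratio of 0.57 in MG and 0.16 in non-MG cells, and MMP9 0.35 and 0.10, all within 1.5-fold. The comparison of cell types with vehicle and each drug comparison share an array, so that their ratios are not independent of each other.

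Genes that work with the partners are given by lists. Of 23 genes of BRCA1 complexes and of recombination, 22 were well above background on all arrays. Higher past 1.5-fold in MG cells were 6 of these 22 with vehicle and 3 with 5-azacytidine, and 0 were lower in either, where 5.68% and 5.74% of all genes were higher. Under the other settings the counts were 4 to 8 and 3 to 11, the highest being under median centring, where 13.5% and 19.1% of all genes were higher. With vehicle these included BRIP1, the helicase bound to BRCA1, at 1.23 (spot error 0.22), EXO1, an exonuclease of resection, at 1.05, and CHEK1, the checkpoint kinase, at 0.91. With 5-azacytidine they included NBN at 0.91 and EXO1 at 0.80. The median of the list was 0.28 with vehicle and 0.31 with 5-azacytidine, against −0.01 and 0.02 over all genes. BRCA2, a mediator of recombination, was above background on the MG arrays alone, with intensities of 7.8 and 8.3 in non-MG cells and 25.2 and 25.5 in MG cells, and was at least 2.21-fold higher in MG cells with vehicle and at least 1.998-fold with 5-azacytidine.

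Of 24 genes of the KAP1 corepressor machinery, 23 were measured, with medians of 0.14 with vehicle and 0.21 with 5-azacytidine. UHRF1, the reader of hemimethylated DNA, was the 1 gene past 1.5-fold between the cell types, at 0.66 with vehicle, where 5.68% of all genes were higher, and 0 passed with 5-azacytidine. MORC2, an ATPase of the HUSH pathway, was the 1 gene past 1.5-fold with the drug, at 0.62 in MG cells (spot error 0.16), where 3.02% of all genes were higher, and 0 passed in non-MG cells. These counts are near the background. Of 6 genes of the angiopoietin system, VEGFA alone was measured on all arrays, with MG/non-MG ratios of −0.63 with vehicle and −0.54 with 5-azacytidine. The former is past 1.5-fold, where 8.24% of all genes were lower. ANGPT2, the antagonist of ANGPT1, was above background on the MG arrays alone and was at least 1.499-fold higher in MG cells with vehicle and at least 2.19-fold with 5-azacytidine, and ANGPT4, TEK, TIE1 and PTPRB were above background on none. Of 7 genes of the let-7 and HMGA2 axis, 3 were measured on all arrays. Of these 3, IGF2BP3, an RNA-binding protein, had an MG/non-MG ratio past 1.5-fold with 5-azacytidine, at −0.71, where 7.33% of all genes were lower. LIN28B, which blocks the maturation of let-7, had intensities of 5.8 and 2.6 with vehicle in non-MG and MG cells, not well above background in either, and of 43.8 and 70.5 with 5-azacytidine, which is at least 5.06-fold and 6.29-fold higher with the drug. LIN28B was singled out after its values were seen, and HMGA2 was within 1.5-fold on the same arrays.

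Genes of S phase and mitosis were also read, as BRCA1 and BARD1 are genes of dividing cells. With vehicle all 16 genes of that list had an MG/non-MG ratio above 0, under every background correction and scaling tried, and 11 of them were past 1.5-fold, or 9 to 13 under the alternatives, against 5.68% of all genes. With 5-azacytidine all 16 were above 0, although MKI67 or MCM5 turned under 4 alternatives, and 7 were past 1.5-fold, or 5 to 13, against 5.74%. Both counts of 13 were under median centring. The medians were 0.64 and 0.55, against −0.01 and 0.02 over all genes, and 0 genes were lower past 1.5-fold. With vehicle the largest ratios were 0.93 for RRM2, a subunit of ribonucleotide reductase, 0.90 for MCM4 of the replicative helicase, 0.89 for the cyclin CCNE2 and 0.88 for the transcription factor E2F1. With 5-azacytidine they were 0.87 for RRM2, 0.74 for TOP2A, 0.74 for CCNB1 and 0.70 for CCNE2. The ratios of this list ran from 0.24 to 0.93 with vehicle and from 0.02 to 0.87 with 5-azacytidine. Those of BRCA1, 0.87 and 0.66, and of BARD1, 0.45 and 0.62, fall within these ranges. So do those of CBX5 in both and of RBBP8, TRIM28 and SETDB1 with 5-azacytidine. Lying within the range thus does not set BRCA1 and BARD1 apart from the other partners with 5-azacytidine, nor from CBX5 with vehicle. The list was not past 1.5-fold for any gene in either drug comparison, where its medians were 0.08 in non-MG and −0.10 in MG cells. The paper found no difference in growth rate between MG and non-MG cells, in a separate assay for which it names neither vehicle nor drug. The part of cell cycle genes in the difference of BRCA1 and BARD1 was not tested. The E2F core was found in the promoters of 4 of the 13 S phase and mitosis genes that have one listed, which were MCM3, MCM7, PCNA and TYMS, of 4 of 19 genes of the BRCA1-associated list and of 3 of 21 of the KAP1-associated list, against 7.82% of all genes.

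**Figure D4:**
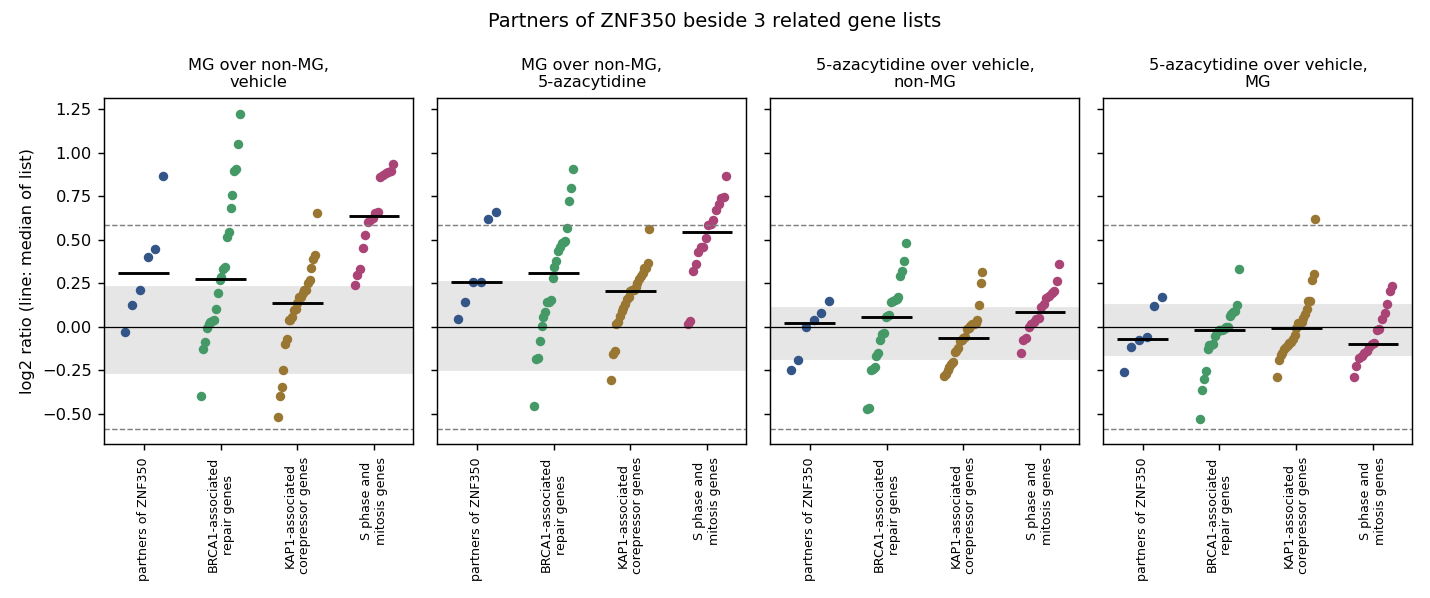
Log2 ratio of each gene of the 6 partners, the BRCA1-associated list, the KAP1-associated list and the S phase and mitosis list in the 4 comparisons, with 1 point per gene, sorted within a list, and a line at the median of the list. The grey band spans the middle 50% of all genes and dashed lines mark 1.5-fold. With vehicle the S phase and mitosis list has its median at 0.64, above those of the partners at 0.31, the BRCA1-associated list at 0.28 and the KAP1-associated list at 0.14.

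The likeness of whole patterns was described for BRCA1 and BARD1, the members whose highest and lowest levels differ by more than 1.5-fold, as the Euclidean distance between log2 levels centred on their mean over the 4 arrays. Among the genes nearest to BRCA1 were USP1 at 0.03 and BCLAF1 at 0.03. The 3 nearest to BARD1 were POPDC3 at 0.03, MAPKAPK3 at 0.04 and SLTM at 0.04. With 4 arrays such a likeness is common, since 182 named genes lay within 0.2 of BRCA1 and 396 within 0.2 of BARD1.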

How the data were processed

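Gene expression was measured on 4 one-colour Agilent SurePrint G3 arrays, from 400 ng of RNA each. RNA came from RNAiso Plus per the labels and from an RNeasy kit per the methods. The authors deposited Feature Extraction 11.5.1.1 output with a background-corrected intensity per spot, not normalized between arrays, and a table of log2 values for 24189 probes centred on the median of each probe. The methods name GeneSpring, with filters on the lowest 20th percentile and on flags.

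Control and outlier spots were left out, the 75th percentile of each array was subtracted on the log2 scale, spots of a probe were averaged, and a gene is the mean of its probes well above background on all 4 arrays. Where a probe was not, a fold was bounded by the lowest signal well above background on that array. Names came from unversioned accessions matched to RefSeq of GRCh38.p14, which named 30000 of 50594 probes. The array design uses an earlier build, so no positions of probes or genes are given, and the promoters printed have the positions that RefSeq gives them in GRCh38.p14. The counting was tested on simulated data with spot noise and a constant shift per array, but no variation between cultures. That test covers the arithmetic and not the reliability of the calls made here. The members, the lists and the tests were chosen with earlier results of these data known. Named were all probes of the members and of ZNF350, the other reported targets, up to 4 genes per list and comparison past 1.5-fold, and the 3 nearest patterns, and any other gene was chosen after its values were seen. Some genes that this rule names are not reported here. Alternatives were normexp (offset 50, on the median spot signal), quantile normalization, median centring, the percentile of detected probes, the authors' values, 4 other treatments of dim or multiple probes, a gene called by any probe, and thresholds of 2-fold and 1.4-fold. Python 3.11.15, numpy 2.4.6, pandas 2.3.3, matplotlib 3.10.9, R 4.3.3 and limma 3.58.1 were used.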

Additional observations from a re-analysis of the deposited data

Results flagged for a closer look

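With 1 array per condition, the effects below had opposite signs in the 2 cell types or under the 2 treatments, and the difference was not tested. BRCA1 had a drug ratio of −0.0591 in MG cells and 0.1501 in non-MG cells. CBX5 had −0.257 in MG cells and 0.0006 in non-MG cells, where the value is far smaller than its spot error of 0.07 and ran from −0.10 to 0.08 over the other settings. SETDB1 had an MG/non-MG ratio of −0.0294 with vehicle and 0.0442 with 5-azacytidine, both smaller than its spot error.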

How the results depend on the processing

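No paired analysis was possible because each condition has 1 array, and for the same reason no array could be left out. A block for the slide was not run, since there is 1 slide. Of 52 counts of the members past 1.5-fold, over 13 alternatives and 4 comparisons, 47 stayed within 1.5 times the value given, and both drug comparisons kept a count of 0 in all of them. Between the cell types with vehicle the count was 3 under median centring (BRCA1, BARD1 and CBX5) and 0 at 2-fold. With 5-azacytidine it was 1 under normexp (BRCA1), 0 with the 75th percentile of probes well above background on all arrays and 0 at 2-fold. BRCA1 ran from 0.76 to 1.06 with vehicle, past 1.5-fold in 10 of 10 settings, and from 0.58 to 0.92 with 5-azacytidine, past it in 9 of 10. BARD1 ran from 0.32 to 0.64, past it in 1 of 10, and from 0.31 to 0.88, past it in 8 of 10. HMGA2 ran from −0.22 to −0.01 with vehicle and from −0.22 to 0.12 with 5-azacytidine, past it in 0. The MG/non-MG ratio of ZNF350 with vehicle ran from −3.79 to −0.81 over 7 settings, that with 5-azacytidine from −1.63 to −0.61, and its drug ratio in MG cells from 0.33 to 2.57, past 1.5-fold in 5 of 7, with normexp the smallest in each. The direction was kept in 267 of 280 ratios of members. The 4 treatments of dim or multiple probes could not change BRCA1 or BARD1, each with 1 probe detected on every array. Those of dim probes left the other members unchanged too, so the counts of settings above partly repeat 1 value. One setting, the authors' values with no further scaling, was chosen after seeing the data. Dim probes, such as those of ZNF350 and ANGPT1, limit what can be measured.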
